A study of Rattus norvegicus with 9 samples.

Results

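The solute carrier (SLC) genes measured here are the genes whose single symbol in the array annotation starts with Slc, without the vesicular monoamine transporter Slc18a2 and the glucose transporter Slc2a1. They comprised 124 of the 4736 genes that the array names singly, and each was read at its brightest probe set, the one with the highest mean over the 9 arrays. Of the 124 genes, 82 had a single probe set and 42 had several, which gave 60 further probe sets; differences between probe sets of 1 gene that lay on opposite sides of 0 and 0.5 or more apart are reported. No filter on low values was applied, so all 124 genes entered the tests, and 69 of them had a mean at or above 6.8, the median of all probe sets on the log2 scale. A probe set that lists Slc25a51 under 2 gene IDs was left out.

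Neurons from superior cervical ganglia (SCG) of Holtzman rat embryos at day 21 were grown in serum-free medium with nerve growth factor at 100 ng/ml, and every culture had been given Ara-C to remove dividing non-neuronal cells. From day 5 in vitro, BMP24h cultures received bone morphogenetic protein-7 (BMP-7) at 50 ng/ml for 24 hr, BMP6h cultures received the same concentration for 6 hr, and control cultures stayed in medium alone for 24 hr. Each condition had 3 arrays (Affymetrix Rat Genome), each from RNA of pooled cultures, and the 3 replicates came from independent dissections. BMP-7 makes these neurons, which otherwise grow only an axon, form dendrites, and the arrays address which transcripts differ between the conditions during that response. The samples were whole cultures, so fewer cells of a type and less RNA per cell cannot be told apart.

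Solute carriers are membrane proteins that move ions, transmitters, nutrients and metabolites across the plasma membrane, across vesicle membranes or across the inner mitochondrial membrane. They do not hydrolyze ATP; they use ion gradients, exchange of solutes, or the gradient of the solute itself. In sympathetic neurons the best known member is the noradrenaline transporter Slc6a2, which returns released noradrenaline to the terminal, while other members set intracellular chloride, remove calcium after activity and bring in glucose, lactate and amino acids.

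Values are RMA log2 expression values from which the authors removed the batch difference, and a log2 fold change is the difference between the means of 2 conditions. The tests were run in limma on a model of condition and array batch, and the p-values carry a Benjamini-Hochberg adjustment for all 8740 probe sets. BMP6h replicate 2 stood apart: 12 of the 124 genes (9.68%) deviated there by over 1 on the log2 scale from the average of the remaining BMP6h arrays, against 5 on BMP6h replicate 3, 2 on control replicate 3, 1 on BMP24h replicate 3 and 0 on the other 5 arrays. The same measure over all probe sets gave 9.99% on BMP6h replicate 2. The 5 genes on BMP6h replicate 3 were all among those 12 and all read low, against an average that included replicate 2. Of 15 markers of sympathetic neurons 12 were measured, and their mean level lay between 11.41 and 11.56 on BMP24h arrays, between 11.52 and 11.61 on BMP6h arrays and between 11.45 and 11.57 on control arrays. The mean of 12 fibroblast and matrix markers was lower on the BMP24h arrays (9.74 to 9.87) than on the BMP6h arrays (9.96 to 10.09) and the control arrays (9.92 to 10.21). The mean of 6 endothelial and mural markers lay between 6.83 and 6.90 on the BMP24h arrays, between 6.67 and 6.94 on the BMP6h arrays and between 6.94 and 7.29 on the control arrays. Kdr differed most, with a mean of 4.40 on the BMP24h arrays and 5.79 on the control arrays (7.02 on control replicate 3). Of the 6, 2 were higher at 24 hr, among them Acta2 (9.33 against 9.00). The mean of 10 satellite glia and Schwann cell markers lay between 7.55 and 7.73 on BMP24h arrays and between 7.57 and 7.60 on control arrays. For 6 macrophage and blood markers it lay between 6.59 and 6.64 and between 6.57 and 6.66. The part of these lists in the values of the solute carrier genes was not tested.

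No solute carrier gene passed the adjusted test in any of the 3 comparisons, at a threshold of 0.05 in limma, whereas 0.211% of all genes did so for BMP24h against control, 0.0422% for BMP6h against control and 0% for BMP24h against BMP6h. The lowest adjusted p among the 124 genes was 0.25 at 24 hr, for Slc12a7, 0.887 at 6 hr and 0.939 for BMP24h against BMP6h. An unadjusted p under 0.05 was reached by 4 genes at 24 hr (3.23%, against 3.86% of all genes), by 0 at 6 hr (against 1.79%) and by 4 for BMP24h against BMP6h (3.23%, against 3.29%). The ordinary two-way analysis of variance also called 0 solute carrier genes after adjustment, with 0% of all genes passing in any comparison. The count of 0 depended on equal weights for the arrays. Array weights in limma ran from 0.093 for BMP6h replicate 2 to 5.764 for BMP24h replicate 1. They came from a gene-by-gene method, because another method of weighting (REML) did not converge. BMP24h replicates 2 and 3 had weights of 0.38 and 0.717, so the weighted BMP24h mean rested mostly on replicate 1, the array of batch 1. With these weights the adjusted test was passed at 24 hr by 5 solute carrier genes, with 3.63% of all genes passing. These were Slc12a7, Slc16a3, Slc24a2, Slc25a30 and Slc30a4. It was passed by 0 at 6 hr (0.38% of all genes) and by Slc12a7 and Slc24a2 for BMP24h against BMP6h (2.39% of all genes). The study's own thresholds (called the thresholds of the Methods: a fold change of 1.2 or more and p under 0.05 before adjustment) were therefore applied too, and genes past them are described as higher or lower. They were passed by 4 solute carrier genes for BMP24h against control (3.23%, against 3.82% of all genes), by 0 for BMP6h against control (against 1.79%) and by 4 for BMP24h against BMP6h (3.23%, against 3.21%). These shares were near those of all genes.

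At 24 hr the genes past those thresholds were Slc12a7, Slc25a30 and Slc25a10, with higher values than control, and Slc24a2, with lower values. The 3 higher genes were 2.42% of the solute carrier genes, against 1.77% of all genes, and the lower gene was 0.806%, against 2.05%. Without control replicate 2 the count was 7 in place of 4 (5.65%, against 3.7% of all genes in that fit). Across all 124 genes the median log2 fold change was 0.01, the same as over all genes, with 65 genes above and 59 below 0 and a range of -0.67 for Slc24a2 to 0.61 for Slc6a6, a taurine transporter. The median standard error was 0.17. The 95% interval of the log2 fold change lay wholly within a 1.5-fold difference in either direction for 75 genes (60.5%, against 56.1% of all genes).

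**Figure D1:**
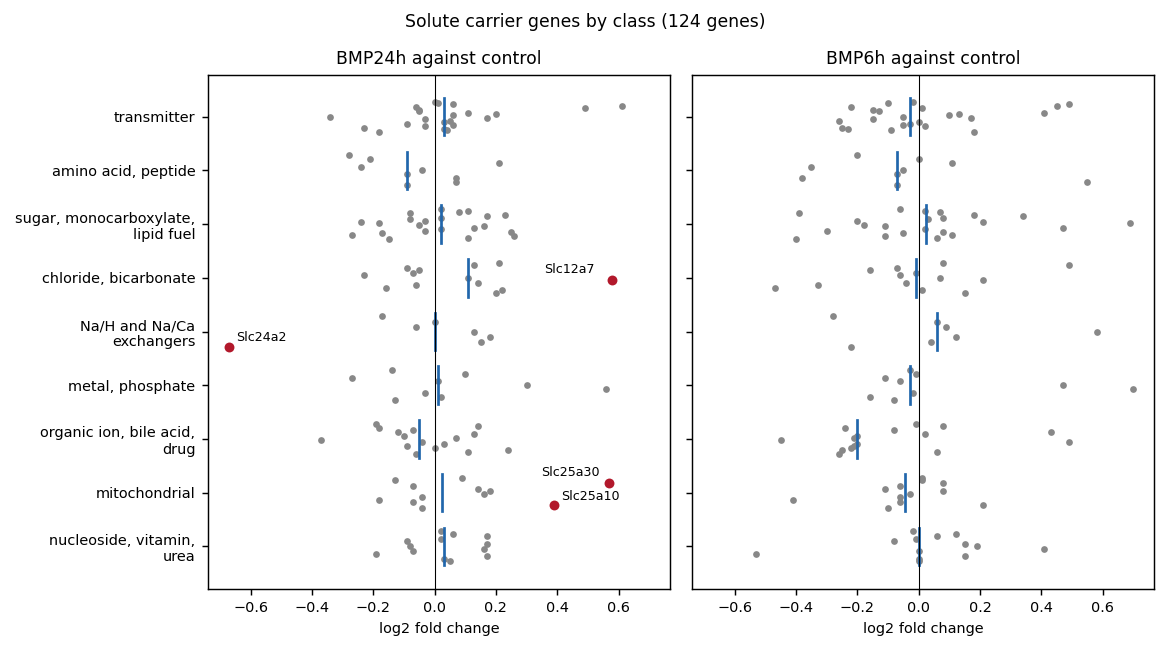
Log2 fold change (x axis) of each of the 124 solute carrier genes, by functional class (y axis), for BMP24h against control and BMP6h against control. Each point is a gene, blue bars are class medians, and red points are the 4 genes past the thresholds of the Methods; most genes lie near 0, and no class median lies beyond 0.2 in either direction.

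Slc12a7 encodes the potassium-chloride cotransporter KCC4, which carries potassium and chloride out of cells, and its gene lies on chromosome 1. Its values were 8.23, 8.28 and 8.06 on the BMP24h arrays, 7.74, 7.77 and 7.94 on the BMP6h arrays, and 7.64, 7.58 and 7.60 on the control arrays. No 2 conditions overlapped, with the BMP24h arrays highest and the control arrays lowest. The log2 fold change for BMP24h against control was 0.58 (standard error 0.12, 95% interval 0.30 to 0.86, a ratio of 1.49), with adjusted p = 0.25 in limma. It was 0.59 in batch 1 and 0.58 in batch 2, and between 0.53 and 0.65 with any single array left out. For BMP6h against control it was 0.21 (standard error 0.12, adjusted p = 0.887), and for BMP24h against BMP6h it was 0.37 (standard error 0.12, adjusted p = 0.939). Slc12a7 was also the only solute carrier gene with p under 0.005 in the F-test across the 3 conditions, where 0.929% of all genes passed. Without BMP6h replicate 2 that test was passed by 3 genes, Slc12a7, Slc24a2 and Slc25a30 (2.42%, against 1.33% of all genes). Without any other single array it was passed by 0, against 0.338% to 0.823% of all genes.

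Slc24a2 encodes NCKX2, an exchanger of neurons that removes calcium by using both the sodium and the potassium gradient, and its gene lies on chromosome 5. Its brightest probe set read 6.09, 6.27 and 6.39 on the BMP24h arrays, 6.90, 6.41 and 6.77 on the BMP6h arrays, and 6.86, 6.84 and 7.03 on the control arrays. All 3 BMP24h arrays were below all BMP6h and control arrays, and BMP6h overlapped control. The log2 fold change for BMP24h against control was -0.67 (standard error 0.16, 95% interval -1.05 to -0.28, a ratio of 0.631), with adjusted p = 0.416. It was -0.78 in batch 1 and -0.61 in batch 2, and between -0.74 and -0.54 with any single array left out. The other probe set of the gene gave a smaller difference, -0.18 (standard error 0.39, adjusted p = 1). It read 5.66, 5.36 and 5.41 on the BMP24h arrays, 5.78, 7.08 and 5.40 on the BMP6h arrays, and 5.78, 5.55 and 5.65 on the control arrays, so that the conditions overlapped and BMP6h replicate 2 was the highest. At 6 hr the probe sets of Slc24a2 lay on opposite sides of 0, with -0.22 at the brightest and 0.43 at the other.

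The promoters of Slc12a7 and Slc24a2 are shown because these genes had the lowest p among the higher and the lower solute carrier genes at 24 hr. Both are RefSeq sequences of the build GRCr8, read 5′ to 3′ on the minus strand, from 250 bases before to 50 bases after the annotated start: chr1:31354576-31354875 for Slc12a7 and chr5:106787731-106788030 for Slc24a2. Capitals mark matches to GGCGCC, a GC-rich motif known for binding Smads that carry BMP signals, and to CANNTG, the E-box bound by basic helix-loop-helix factors. Both motifs read the same on either strand, and a match to one can share its end base with a match to the other, which did not occur in these promoters.
Slc12a7: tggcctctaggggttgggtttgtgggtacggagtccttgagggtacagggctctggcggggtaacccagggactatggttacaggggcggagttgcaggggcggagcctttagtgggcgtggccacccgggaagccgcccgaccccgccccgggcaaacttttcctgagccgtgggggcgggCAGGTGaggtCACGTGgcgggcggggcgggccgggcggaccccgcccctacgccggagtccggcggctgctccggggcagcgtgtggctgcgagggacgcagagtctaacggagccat
Slc24a2: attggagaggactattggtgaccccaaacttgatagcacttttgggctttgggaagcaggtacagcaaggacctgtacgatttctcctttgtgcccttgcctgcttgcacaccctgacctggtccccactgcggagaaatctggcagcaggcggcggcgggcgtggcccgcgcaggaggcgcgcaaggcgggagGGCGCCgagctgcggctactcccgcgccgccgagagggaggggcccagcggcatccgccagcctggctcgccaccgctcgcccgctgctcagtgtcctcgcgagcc

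The Slc12a7 promoter held 0 matches to GGCGCC and 2 to CANNTG, with 71% G or C, and the Slc24a2 promoter held 1 match to GGCGCC and 0 to CANNTG, with 67% G or C. A promoter of this length was given for 105 of the 124 genes. GGCGCC was found in 13 of them (12.4%), against 11.8% of 27457 rat promoters, and CANNTG in 75 (71.4%), against 71.6%. Of the other genes that differed past the thresholds of the Methods, Slc16a1 had 0 matches to GGCGCC and 1 to CANNTG, and Slc25a10 had 0 of either. A match is a description of the letters in this window.

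The other 2 genes with higher values at 24 hr encode mitochondrial carriers. Slc25a30, the mitochondrial carrier KMCP1, named for its place in kidney, lies on chromosome 15 and read 5.67, 5.63 and 5.75 on the BMP24h arrays, 5.28, 4.79 and 5.49 on the BMP6h arrays, and 5.04, 5.24 and 5.06 on the control arrays. The BMP24h arrays were above all others, and the BMP6h arrays spanned the control range. The log2 fold change for BMP24h against control was 0.57 (standard error 0.19, 95% interval 0.14 to 1.01), with adjusted p = 0.924, 0.63 in batch 1 and 0.54 in batch 2. It no longer passed an unadjusted p of 0.05 without BMP24h replicate 3 (0.53) or control replicate 1 (0.52).

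Slc25a10, the dicarboxylate carrier that exchanges malate and succinate for phosphate, lies on chromosome 10. Its brightest probe set read 8.62, 8.83 and 8.80 on the BMP24h arrays, 8.57, 8.53 and 8.62 on the BMP6h arrays, and 8.50, 8.49 and 8.12 on the control arrays. Both BMP-7 conditions were above all control arrays, of which replicate 3 was the lowest. For BMP24h against control the log2 fold change was 0.39 (standard error 0.14, 95% interval 0.05 to 0.72), with adjusted p = 1, 0.13 in batch 1 and 0.51 in batch 2. It no longer passed an unadjusted p of 0.05 without control replicate 3 (0.25), BMP24h replicate 2 (0.34) or BMP24h replicate 3 (0.36). Its other 2 probe sets gave 0.91 (standard error 0.45) and 0.20 (standard error 0.13), on the same side of 0. Averaged over the 3 probe sets the log2 fold change was 0.50 and did not pass.

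**Figure D2:**
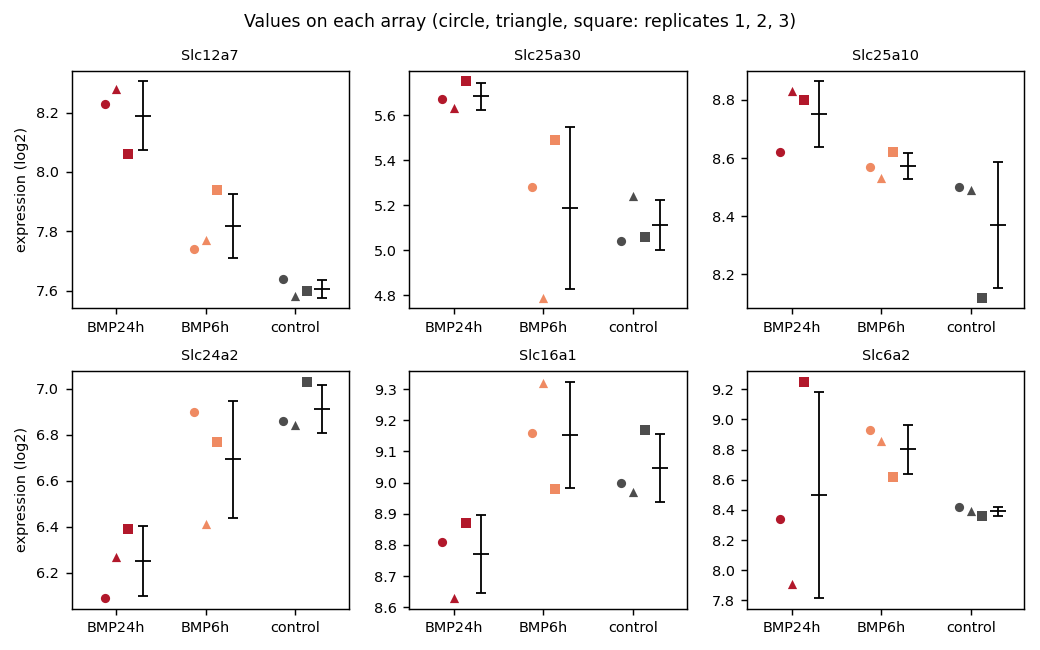
Expression (log2, y axis, scale of its own in each panel) of 6 solute carrier genes on each array, with the mean and SD of the 3 arrays of each condition beside the points; circles, triangles and squares are replicates 1, 2 and 3. Slc12a7 separates all 3 conditions, and for Slc6a2 the BMP6h arrays (8.62 to 8.93) lie above the control arrays (8.36 to 8.42) while the BMP24h arrays spread from 7.91 to 9.25.

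Between the BMP-7 conditions, BMP24h against BMP6h, the genes past the thresholds of the Methods were Slc12a7 and Slc25a30, with higher values at 24 hr, and Slc24a2 and Slc16a1, with lower values. The 2 higher and the 2 lower genes were each 1.61% of the solute carrier genes, against 1.58% of all genes higher and 1.63% lower. This comparison shares its BMP24h arrays with the comparison against control. The log2 fold changes were 0.49 for Slc25a30 (standard error 0.19) and -0.44 for Slc24a2 (standard error 0.16), each with adjusted p = 0.939. Slc16a1, the monocarboxylate transporter MCT1 that carries lactate and pyruvate, was the only one of the 4 that was not past the thresholds against control. It read 8.81, 8.63 and 8.87 on the BMP24h arrays, 9.16, 9.32 and 8.98 on the BMP6h arrays, and 9.00, 8.97 and 9.17 on the control arrays. All BMP24h arrays were below all others, and the log2 fold change was -0.38 against BMP6h (standard error 0.14, adjusted p = 0.939) and -0.27 against control (standard error 0.14, adjusted p = 1). The other probe set of Slc16a1 gave 0.13 (standard error 0.20) against BMP6h, with overlapping conditions and BMP6h replicate 2 the lowest at 7.63, so the 2 probe sets disagreed in direction.

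The count of 4 rested on single arrays. It was 1 (0.806%) without BMP24h replicate 1 or BMP24h replicate 2, against 1.71% and 2.55% of all genes. It was 2 (1.61%) without BMP6h replicate 1 or BMP6h replicate 2, against 2.09% and 3.25%, and 9 without BMP6h replicate 3. Without BMP24h replicate 1 none of the 4 genes passed, and the gene that did was Slc22a13, an organic ion transporter. Slc12a7 alone passed without BMP24h replicate 2, Slc25a30 and Slc22a13 without BMP6h replicate 1, and Slc12a7 and Slc24a2 without BMP6h replicate 2, where the log2 fold change of Slc25a30 was 0.28 in place of 0.49. Without BMP6h replicate 3 the 9 genes were 7.26%, against 8.55% of all genes in that fit, and included 3 of the 4. Over the 124 genes the median log2 fold change was 0.05, against 0.03 over all genes, with 79 genes above and 45 below 0. The 95% interval lay within a 1.5-fold difference in 79 genes (63.7%, against 53.3% of all genes).

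At 6 hr the solute carrier genes had a median log2 fold change of -0.02 against control, beside -0.03 over all genes, with 56 genes above and 68 below 0. The widest values were 0.70 for Slc30a2, a zinc transporter, and -0.53 for Slc23a3, an orphan member of the vitamin C transporter family. The count of 0 past the thresholds of the Methods became 6 without BMP6h replicate 3 (4.84%, against 6.95% of all genes in that fit). It was 2 (1.61%) without BMP6h replicate 1, BMP6h replicate 2, control replicate 1 or control replicate 2, against 2.32%, 1.65%, 2.83% and 2.58% of all genes. Without BMP24h replicate 3 it was 1 (0.806%, against 1.77%). In 77 genes (62.1%, against 53.8% of all genes) the 95% interval lay within a 1.5-fold difference in either direction.

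Most of the wide values at 6 hr were narrower without a single array, BMP6h replicate 2. Of 18 genes beyond 0.4 in either direction at 6 hr, 13 were higher and 5 lower than control, and without BMP6h replicate 2 only 1 of the 18 stayed beyond 0.4. That gene was Slc6a6, with 0.56. The range over all 124 genes was then -0.37 to 0.56. Slc6a6 itself had 0.10 at 6 hr with control replicate 3 left out instead. Others of the 18 also moved without control replicate 3. Slc4a4 went from 0.49 to 0.08 (0.32 without BMP6h replicate 2), Slc30a2 from 0.70 to 0.21 (0.26) and Slc13a1 from -0.4 to -0.14 (-0.24). Slc6a2 crossed 0.4 only narrowly, from 0.41 to 0.38 without BMP6h replicate 2. Slc2a2, the glucose transporter GLUT2 of liver and pancreatic beta cells, read 4.29, 3.76 and 3.57 on the BMP24h arrays, 4.13, 6.69 and 3.41 on the BMP6h arrays, and 4.25, 3.55 and 4.36 on the control arrays. Its log2 fold change at 6 hr was 0.69 (standard error 0.76) with all arrays and -0.37 without BMP6h replicate 2. Slc15a2, the peptide transporter PEPT2, read 5.78, 5.51 and 5.34 on the BMP24h arrays, 5.51, 7.38 and 5.17 on the BMP6h arrays, and 5.74, 5.33 and 5.33 on the control arrays. Here, too, the array apart from the rest was BMP6h replicate 2.

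The same array gave the highest value of Slc8a3, the sodium-calcium exchanger NCX3, at 7.44 against 5.49 to 6.16 on the other 8 arrays. It gave the highest value of Slc22a3, the organic cation transporter that takes up catecholamines into non-neuronal cells, at 6.88 against 5.02 to 5.55, and both probe sets of that gene were high there. For Slc30a2 it read 6.85, and control replicate 3 read 4.43, against 5.61 to 6.00 on the other 7 arrays. Among the genes with low values at 6 hr, BMP6h replicate 2 was the lowest array for Slc23a3 (6.22), Slc12a3 (6.18), Slc25a14 (6.81), Slc22a5 (6.72) and Slc13a1 (3.64). Slc12a3 encodes the thiazide-sensitive sodium-chloride cotransporter, Slc25a14 a mitochondrial carrier of the uncoupling protein family, Slc22a5 a carnitine transporter and Slc13a1 a sodium-sulfate cotransporter. Without that array their log2 fold changes at 6 hr lay between -0.29 for Slc23a3 and -0.04 for Slc25a14.

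**Figure D3:**
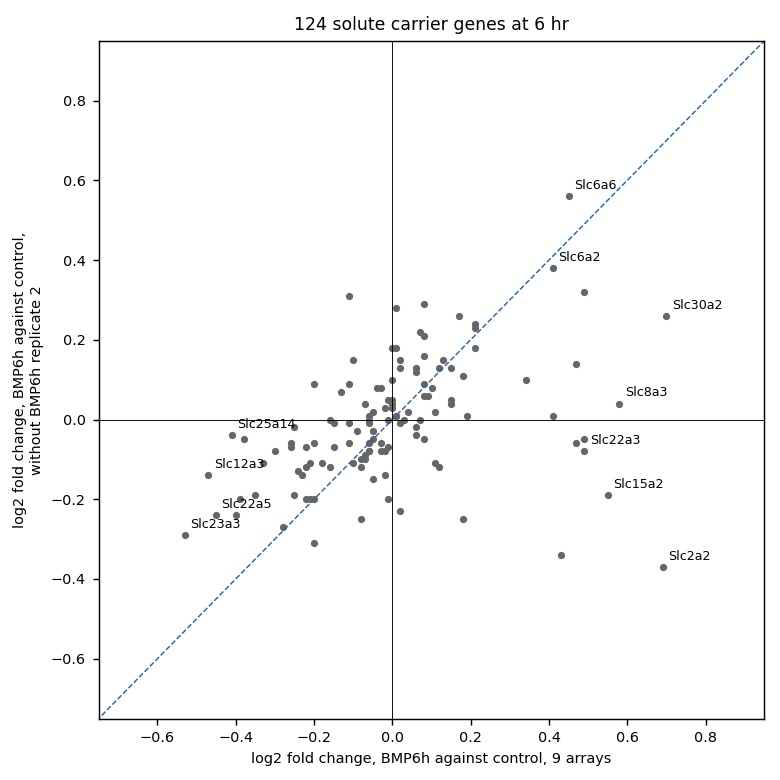
Log2 fold change of BMP6h against control for each of the 124 solute carrier genes, with all 9 arrays (x axis) and without BMP6h replicate 2 (y axis); the dashed line marks equal values. Slc2a2, Slc15a2, Slc22a3 and Slc8a3 move from beyond 0.4 to between -0.37 and 0.04, while Slc6a6 (0.56 on the y axis, and 0.10 without control replicate 3 instead) and Slc6a2 (0.38) stay near the line.

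Among the 23 genes of the transmitter transporter families, none passed the thresholds of the Methods. The class was grouped by family and so includes carriers of taurine (Slc6a6) and of amino acids (Slc6a15 and Slc6a18). Its median was 0.03 at 24 hr and -0.03 at 6 hr on the log2 scale. The noradrenaline transporter Slc6a2, which defines noradrenergic neurons, read 8.34, 7.91 and 9.25 on the BMP24h arrays, 8.93, 8.86 and 8.62 on the BMP6h arrays, and 8.42, 8.39 and 8.36 on the control arrays. Its BMP6h arrays were all above the control arrays, which lay between 8.36 and 8.42, whereas its BMP24h arrays lay on both sides of control. Its BMP24h mean differed from control by 0.11 (standard error 0.31, adjusted p = 1) and its BMP6h mean by 0.41 (standard error 0.31, 95% interval -0.30 to 1.13, adjusted p = 0.887). At 6 hr it was 0.51 in batch 1, 0.37 in batch 2 and 0.38 without BMP6h replicate 2. Its other probe set gave the same picture, with 7.75, 7.47 and 8.74 on the BMP24h arrays, 8.48, 8.04 and 8.20 on the BMP6h arrays, and 7.85, 7.79 and 7.91 on the control arrays, and differences from control of 0.14 for BMP24h and 0.39 for BMP6h. With the BMP6h and control arrays fitted alone, Slc6a2 passed the thresholds of the Methods at 6 hr, as it did without BMP24h replicate 3.

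The serotonin transporter Slc6a4 read 7.31, 7.39 and 7.33 on the BMP24h arrays, 6.81, 6.57 and 7.22 on the BMP6h arrays, and 6.94, 7.14 and 6.47 on the control arrays. All BMP24h arrays were above all others, and the BMP24h mean exceeded control by 0.49 (standard error 0.22, 95% interval -0.02 to 1.01, adjusted p = 1). Without control replicate 3 it was 0.29. Slc6a4 passed the thresholds of the Methods when dim probe sets were removed, when the compared groups were fitted alone and when arrays were weighted. It also passed without BMP6h replicate 2, BMP6h replicate 3 or control replicate 2. With the batch term dropped it passed too, in a fit whose p-values run low because the batch difference had already been removed. At its other probe set the BMP24h arrays were also above all control arrays, with 0.15 (standard error 0.21). Slc6a6 had the largest log2 fold change at 24 hr, 0.61 (standard error 0.28, 95% interval -0.05 to 1.27, adjusted p = 1). It read 7.15, 7.40 and 7.32 on the BMP24h arrays, 7.15, 6.94 and 7.31 on the BMP6h arrays, and 6.80, 7.20 and 6.03 on the control arrays, and the conditions overlapped. The difference at 24 hr was 0.26 without control replicate 3 and 0.90 without control replicate 2. Slc6a15, a transporter of branched-chain amino acids and proline in neurons, had the lowest value of the class, -0.34 (standard error 0.16, adjusted p = 1), with 8.79, 8.48 and 9.08 on the BMP24h arrays, 9.04, 9.03 and 9.15 on the BMP6h arrays, and 9.15, 9.06 and 9.16 on the control arrays. BMP24h replicate 3 lay within the control range and the other 2 BMP24h arrays below it.

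The other genes of the transmitter transporter families stayed closer to control at 24 hr. Their log2 fold changes lay between -0.23 for Slc18a3, the vesicular acetylcholine transporter, and 0.20 for Slc6a18, an amino acid transporter of kidney. Slc18a1, a vesicular monoamine transporter, had 0.03 (standard error 0.22), and Slc6a3, the dopamine transporter, had -0.05 (standard error 0.12). Vesicular glutamate and GABA transporters Slc17a7 and Slc32a1 had 0.04 and 0.05, and the glycine transporter Slc6a9 had 0.00 (standard error 0.12). The plasma membrane glutamate transporters Slc1a1, Slc1a2, Slc1a3 and Slc1a6 lay between -0.09 and 0.06 at their brightest probe sets. For Slc1a2 the brightest probe set had -0.05 at 6 hr and the other 3 had 0.27, 0.43 and 0.84, the last with 6.60 on BMP6h replicate 2 and 3.86 on control replicate 3 against 5.00 to 5.26 on the other arrays. Against BMP6h, BMP24h stood at 0.11 at the brightest probe set of Slc1a2 and at -0.45 at that one.

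The 13 chloride and bicarbonate transporters had a median of 0.11 at 24 hr, 7 above and 6 below 0, and of -0.01 at 6 hr. Slc12a7 was the only gene of the class past the thresholds of the Methods. Among its relatives, Slc12a5, the neuronal potassium-chloride cotransporter KCC2, read 4.24, 4.28 and 4.31 on the BMP24h arrays, 4.18, 3.88 and 4.23 on the BMP6h arrays, and 4.09, 4.21 and 4.11 on the control arrays, with 0.14 (standard error 0.13, adjusted p = 1) against control. Its BMP24h arrays were above all others, by a narrow margin. Slc12a4, the cotransporter KCC1 found in most cells, had -0.06 (standard error 0.19), and Slc12a2, the sodium-potassium-chloride cotransporter NKCC1 that brings chloride in, had 0.22 (standard error 0.26) at its brightest probe set and -0.10 to 0.05 at its other 3. For BMP24h against BMP6h, Slc12a2 had 0.21 at the brightest probe set and -0.73 and -0.41 at 2 others, on which BMP6h replicate 2 was the highest array (7.08 and 6.11). The bicarbonate transporters and anion exchangers Slc4a1, Slc4a2, Slc4a3, Slc4a4 and Slc4a7 lay between -0.09 and 0.21, and the sulfate transporter Slc26a2 had the lowest value of the class, -0.23 (standard error 0.13, adjusted p = 1), with 4.80 to 5.17 on the BMP24h arrays and 5.17 to 5.35 on the control arrays.

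Of the 7 sodium-proton and sodium-calcium exchangers, Slc24a2 was the only gene past the thresholds of the Methods, and the class median was 0 at 24 hr and 0.06 at 6 hr. The sodium-calcium exchangers Slc8a1, Slc8a2 and Slc8a3, which remove calcium without using potassium, had values of 0.15, 0.18 and 0.13 at 24 hr, none with p under 0.05. The brightest probe set of Slc8a1 read 9.57 to 9.83 on the BMP24h arrays and 9.48 to 9.57 on the control arrays, and its other 4 probe sets gave -0.34 to 0.11. The sodium-proton exchangers Slc9a2, Slc9a3 and Slc9a4, which regulate pH, had -0.06, 0.00 and -0.17. Slc9a2 is also represented by a probe set that the array annotation used here does not name but the tables of the study do. It read 6.71, 6.75 and 6.71 on the BMP24h arrays, 6.92, 6.96 and 6.90 on the BMP6h arrays, and 6.82, 6.77 and 6.82 on the control arrays. The conditions did not overlap, but the differences were small, -0.08 at 24 hr and 0.13 at 6 hr against control. In the F-test across the 3 conditions this probe set passed a p of 0.005 in the ordinary analysis of variance and did not pass it with the moderated variance of limma.

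The 22 genes of the sugar, monocarboxylate and fatty acid transporter families, grouped by family and so including carriers of sulfate (Slc13a1), iodide (Slc5a5) and vitamins (Slc5a6), had a median of 0.02 at both times, and at 24 hr all lay between -0.27 for Slc16a1 and 0.26 for Slc13a3, a transporter of citrate-cycle dicarboxylates. Slc2a3, the neuronal glucose transporter GLUT3, read 8.83, 8.70 and 9.35 on the BMP24h arrays, 9.58, 9.47 and 9.19 on the BMP6h arrays, and 9.16, 9.26 and 9.17 on the control arrays. Its BMP24h arrays lay on both sides of control, and the log2 fold change was -0.24 against control (standard error 0.20) and -0.45 against BMP6h (standard error 0.20, adjusted p = 0.939). Slc16a3, the lactate exporter MCT4, had 0.25 (standard error 0.14, adjusted p = 1) at 24 hr. The fatty acid transporters Slc27a1 and Slc27a2 had 0.16 (standard error 0.18) and -0.05 (standard error 0.13), and for Slc27a1 the BMP24h arrays (7.83 to 8.03) lay just above the control arrays (7.65 to 7.82).

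The 12 genes of the mitochondrial carrier family Slc25 were grouped by symbol, not by the membrane in which each carrier lies. They had a median of 0.03 at 24 hr and of -0.04 at 6 hr, and besides Slc25a30 and Slc25a10 all lay between -0.18 and 0.18 at 24 hr. Of these, Slc25a4 and Slc25a5, which exchange ADP for ATP, had -0.13 (standard error 0.13) and 0.09 (standard error 0.11). The phosphate carrier Slc25a3 had -0.07 (standard error 0.11), and the citrate carrier Slc25a1 had -0.04 (standard error 0.12). Slc25a26, which imports the methyl donor S-adenosylmethionine, had BMP24h arrays (6.58 to 6.70) above all BMP6h arrays (6.17 to 6.53) and control arrays (6.41 to 6.55), and its BMP24h mean stood 0.14 above control on the log2 scale (standard error 0.13, adjusted p = 1).

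All 9 amino acid and peptide transporters lay between -0.28 and 0.21 at 24 hr, with a median of -0.09, and the median at 6 hr was -0.07. Slc7a5, the large neutral amino acid transporter LAT1, had the lowest value, -0.28 (standard error 0.17, adjusted p = 1), with 10.15, 10.12 and 10.22 on the BMP24h arrays, 10.21, 10.24 and 10.26 on the BMP6h arrays, and 10.49, 10.09 and 10.74 on the control arrays. The control arrays spread more widely than those of either BMP-7 condition and overlapped both. Its partner Slc3a2, the heavy chain that brings LAT1 to the cell surface, had -0.04 (standard error 0.11) at 24 hr and -0.05 (standard error 0.11) at 6 hr. The cationic amino acid transporters Slc7a1 and Slc7a3, which import arginine and lysine, had BMP24h values below all control arrays, with -0.24 (standard error 0.17, adjusted p = 1) and -0.21 (standard error 0.14, adjusted p = 1). For Slc7a1 the BMP6h arrays were also below all control arrays, with -0.35 (standard error 0.17, adjusted p = 0.887), or -0.19 without BMP6h replicate 2. The other 2 probe sets of Slc7a1 overlapped control at both times, with -0.15 and -0.04 at 24 hr and -0.26 and 0.11 at 6 hr.

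The 9 metal and phosphate transporters had medians of 0.01 at 24 hr and -0.03 at 6 hr. Slc30a4, a zinc transporter of vesicles, had 0.30 (standard error 0.28) at 24 hr and 0.47 (standard error 0.28) at 6 hr, where its BMP6h arrays (6.88, 7.80 and 6.89) were all above the control arrays (6.75, 6.63 and 6.78). At 6 hr it was 0.14 without BMP6h replicate 2, and at 24 hr it was 0.09 without BMP24h replicate 1. Slc40a1, the iron exporter ferroportin, had -0.27 (standard error 0.14, adjusted p = 1) at 24 hr at its brightest probe set and 0.03 at its other, and Slc11a2, the iron importer DMT1, had -0.13 (standard error 0.14). The 13 nucleoside, nucleotide-sugar, vitamin and urea transporters all lay between -0.19 and 0.17 at 24 hr, with a median of 0.03. The urea transporter Slc14a1 had 0.00 at 6 hr at its brightest probe set and -0.50 at its other, where BMP6h replicate 2 was the lowest array (4.25).

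The 16 organic ion, bile acid and drug transporters had a median of -0.05 at 24 hr and of -0.20 at 6 hr, 11 of them below 0 at 6 hr. Without BMP6h replicate 2 the median at 6 hr was -0.08, with 13 below 0. Only 4 of the 16 had a mean at or above that of the median probe set. Slc22a5 had the lowest value of the class at both times, -0.37 (standard error 0.20, adjusted p = 1) at 24 hr and -0.45 (standard error 0.20, adjusted p = 0.887) at 6 hr. It read 7.26, 6.99 and 7.29 on the BMP24h arrays, 7.27, 6.72 and 7.32 on the BMP6h arrays, and 7.31, 7.65 and 7.71 on the control arrays. The difference was seen in batch 2 (-0.53 at 24 hr and -0.65 at 6 hr) and was -0.05 and -0.03 in batch 1. Slc10a2, the ileal bile acid transporter, was the only gene whose probe sets lay on opposite sides of 0 and over 0.5 apart at 24 hr, with 0.11 (standard error 0.16) at the brighter and -0.56 (standard error 0.52) at the dimmer. At 6 hr it had 0.06 and -0.73 at these probe sets, and the prostaglandin transporter Slco2a1 had 0.08 at its brightest and -0.44 at its other, where BMP6h replicate 2 was the lowest array (5.21).

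**Figure D4:**
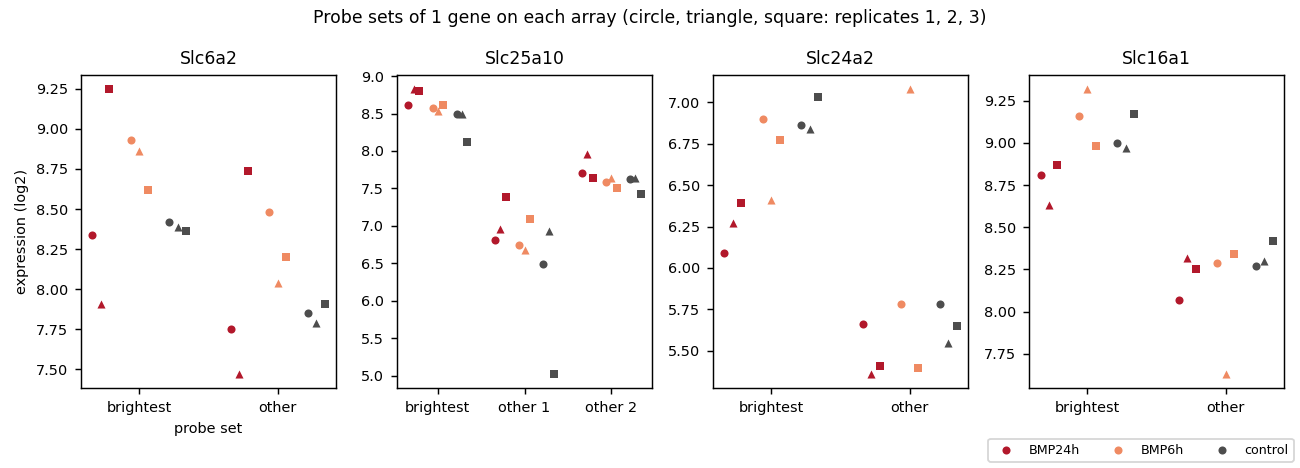
Expression (log2, y axis) on each array at every probe set of Slc6a2, Slc25a10, Slc24a2 and Slc16a1, brightest probe set first; colors are conditions, and circles, triangles and squares are replicates 1, 2 and 3. Both probe sets of Slc6a2 place the BMP6h arrays above the control arrays, whereas the dimmer probe sets of Slc24a2 and Slc16a1 show overlapping conditions.

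Conditions that did not overlap were about as frequent among the solute carrier genes as among all genes. For BMP24h against control, all BMP24h arrays were above all control arrays in 10 genes (8.06%, against 5.95% of all genes) and below them in 7 (5.65%, against 7.69%). For BMP6h against control the counts were 5 above (4.03%, against 3.12%) and 9 below (7.26%, against 7.37%), and for BMP24h against BMP6h they were 9 above (7.26%, against 6.12%) and 7 below (5.65%, against 4.27%). Slc12a7 and Slc25a10 were above control at both times, and Slc7a1, at its brightest probe set, was below control at both times. Both comparisons against control share the control arrays. A fold change over 1.5 in either direction was reached at 24 hr by Slc24a2 and Slc6a6 (1.61%, against 2.85% of all genes) and at 6 hr by Slc2a2 and Slc30a2 (1.61%, against 4.84%). For BMP24h against BMP6h it was reached by Slc2a2 (0.806%, against 3%).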

How the data were processed

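The 9 arrays hold 3 conditions with 3 replicates each. Batch 1 held replicate 1 of every condition (10 µg of cRNA on the array), and batch 2 held replicates 2 and 3 (5 µg). The deposited log2 values were made by the authors with RMA in Partek Genomics Suite 6.5, with its batch removal function, which left batch means of a probe set that differed by at most 6.7e-05. The values ran from 2.69 to 14.38, and no array pair was identical. Arrays have no read depth; their number limits the precision.

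The 59 control probe sets among 8799 were dropped. In the 8740 that were tested, 7006 name 1 gene, 308 several and 1426 none in the array annotation. All 124 solute carrier genes matched a RefSeq gene ID. The model of condition and batch was fitted in limma 3.58.1 under R 4.3.3 and left 5 residual degrees of freedom. The Benjamini-Hochberg adjustment ran over all probe sets, and 0.05 was the threshold. From the same fit, genes were also counted at the Methods' criteria, which are a fold change of 1.2 or more with p under 0.05, and p under 0.005 for the F-test. Shares of all genes refer to 4736 genes at 1 probe set each. The fit was tested on simulated data.

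Genes were grouped by the family number in the symbol. The genes described in full are those past any threshold, the 5 highest and 5 lowest at 24 hr and at 6 hr, those of the study's tables, Slc6a2, and those whose probe sets lay on opposite sides of 0 and over 0.5 apart at 24 hr. Further examples were picked with their values in view. The members, the lists and these rules were chosen with earlier results of these data known.

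Alternatives covered the model (variance without moderation as in the Methods, no batch term, a replicate block, an intensity trend, array weights), the arrays used (batch 2, the compared groups, each array left out), the values (dim probe sets removed, quantile normalization repeated, medians centred, probe sets averaged) and a fold change minimum of 1.5.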

Additional observations from a re-analysis of the deposited data

Results flagged for a closer look

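A probe set of Slc9a2, the sodium-proton exchanger NHE2, that only the tables of the study name had all 3 BMP24h arrays (6.71 to 6.75) below the control arrays (6.77 to 6.82) and all 3 BMP6h arrays (6.90 to 6.96) above them. It was picked by this pattern from all probe sets of the solute carrier genes. Against control the log2 differences were -0.08 for BMP24h and 0.13 for BMP6h (standard error 0.10 for each), neither with p under 0.05 in limma. Between BMP24h and BMP6h the log2 difference was -0.20 (standard error 0.10, 95% interval -0.44 to 0.03). In limma the difference between BMP24h and BMP6h had adjusted p = 0.939, so it did not pass the test. The brightest probe set that the array annotation gives for Slc9a2 overlapped between conditions, with a difference of -0.15 (standard error 0.18).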

How the results depend on the processing

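Over all 124 genes, each gene past the thresholds of the Methods with all arrays equally weighted kept its direction in every alternative that measured it. With dim probe sets removed, Slc24a2 and Slc25a30 were not measured. The count at 24 hr stayed at 4 (5.8%, against 6.56% of all genes), but the genes were Slc12a7, Slc25a10, Slc6a4 and Slc6a6. For BMP24h against BMP6h it was also 4 (5.8%, against 5.69%), namely Slc12a7, Slc16a1, Slc2a3 and Slc6a4. Of genes past them in an alternative, Slco1a3 at 6 hr turned to -0.34 without BMP6h replicate 2 (0.43 with it), and Slc30a4 for BMP24h against BMP6h turned to 0.31 with array weights (-0.17 without). The medians of the 124 genes stayed between -0.03 and 0.03 at 24 hr, between -0.05 and 0.00 at 6 hr and between 0.01 and 0.07 for BMP24h against BMP6h. Genes past the adjusted test numbered 0 in every comparison and setting except with array weights. Those gave 5 at 24 hr (4.03%, against 3.63% of all genes) and 2 for BMP24h against BMP6h (1.61%, against 2.39%). In several of the other settings 0% of all genes passed as well, so a count of 0 there says nothing particular to the solute carrier genes. Among them were the ordinary analysis of variance, batch 2 alone and, at 24 hr, each BMP24h array left out. With array weights the thresholds of the Methods were passed by 10 genes at 24 hr (8.06%, against 9.44% of all genes; Slc25a10 was not among them), 9 for BMP24h against BMP6h (7.26%, against 8.04%) and 5 in the F-test (4.03%, against 5.09%). The other counts past these thresholds that moved by over 1.5 times, or to or from 0, are as follows, and the cause was not tested. The fit with no batch term counts a residual degree of freedom that the batch removal had already used, so its p-values run low. At 24 hr the count was 7 with no batch term (5.65%, against 4.81% of all genes) and 2 in batch 2 alone (1.61%, against 1.88%). It was 1 with a fold change minimum of 1.5 (0.806%, against 1.69%). At 6 hr it was 3 with no batch term (2.42%, against 3.04%) or with dim probe sets removed (4.35%, against 2.56%). It was 1 (0.806%) in batch 2 alone, with an intensity trend or with the compared groups alone, against 1.5%, 1.75% and 1.22%. With the replicate block it was 2 (1.61%, against 4.58%). For BMP24h against BMP6h it was 7 with no batch term (5.65%, against 4.48% of all genes). It was 1 (0.806%) in batch 2 alone (Slc22a13, none of the 4) or with the compared groups alone (Slc12a7), against 0.971% and 2.03%. With the minimum of 1.5 it was 0, against 1.03%. The F-test count was 0 in batch 2 alone, with median centring and with the replicate block, against 0.253%, 0.823% and 1.25% of all genes.

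With each array left out in turn, the counts past the thresholds of the Methods ran from 3 to 7 at 24 hr, from 0 to 6 at 6 hr, from 1 to 9 for BMP24h against BMP6h and from 0 to 3 in the F-test. In the same fits the share of all genes ran from 2.28% to 5.74%, from 0.908% to 6.95%, from 1.71% to 8.55% and from 0.338% to 1.33%. The Methods state that the conditions of an experiment shared a dissection, but the labels do not say that a replicate number marks it. In batch 2 the differences between replicates 2 and 3 correlated at 0.02 to 0.40 between conditions; replicate 1, alone in batch 1, could not be checked after the batch removal. The arrays were not treated as pairs. The replicate block moved the count at 24 hr to 5 (Slc6a15 added; 4.03%, against 5.26% of all genes). It moved the count at 6 hr to 2 (Slc22a5 and Slc23a3; 1.61%, against 4.58%) and the F-test count to 0 (against 1.25%). Of 1290 values of the 22 genes described in full under the alternatives, 1211 stayed on the same side of the threshold. Another 46 passed only under the alternative and 33 no longer passed. Values that passed in neither fit counted as staying, so the 1211 does not measure how stable the called genes were. By definition a loss can fall only on a gene that passed with all arrays equally weighted. The 33 losses therefore all belong to the 4 genes called at 24 hr and the 4 called for BMP24h against BMP6h. With 3 arrays a condition, a median standard error of 0.17 limits what could be called.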
